A study of Mus musculus with 7 samples.

Results

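The ETS family of transcription factors was followed in LSK cells through 10 of its members: Ets1, Ets2, Etv6, Elf1, Elf2, Elf4, Elk3, Elk4, Gabpa and Etv3. They were taken by symbol as ETS factors other than Spi1, Fli1 and Erg, and are 10 of the 24421 gene rows of the count data. LSK cells are the Lin-Sca1+Kit+ fraction of bone marrow, which holds hematopoietic stem cells and multipotent progenitors. RNA-seq was available for 4 mice of the Ddx41+/+ group (replicates 1 to 4) and 3 of the Ddx41+/- group (replicates 6 to 8), each a separate transplant recipient. The question addressed was how loss of 1 allele of Ddx41, which encodes a DEAD-box RNA helicase, alters the transcriptome of these cells.

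Donor marrow of both groups carried Rosa-CreERT2, a Cre recombinase that tamoxifen activates in any cell type. In the Ddx41+/- group it was joined by a single floxed Ddx41 allele, while the Ddx41+/+ group had wild-type alleles. Lethally irradiated BoyJ mice received the marrow, and recipients of both groups were given 1 mg tamoxifen a day in 2 rounds of 5 days. The sort for LSK took place 8 weeks after transplantation. Ages, the number of donors and a gate that separates donor from remaining host cells are not given for these samples. A Ddx41+/- library numbered 5 was removed before the counts were deposited and was not analysed here. The p-values below measure the spread between recipients, which may share a donor.

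ETS factors bind DNA through a shared winged helix-turn-helix domain, the ETS domain, at sites built around a GGAA core. Family members overlap in the sites they recognize and differ in their partners: Gabpa pairs with Gabpb1 or Gabpb2, and Elk3 and Elk4 bind beside serum response factor (Srf). Some members activate transcription (Ets1, Ets2, Elf1, Elf4, Gabpa), whereas Etv6, Etv3 and Elk3 are known chiefly as repressors. In hematopoiesis, Etv6 is needed for stem cells to persist in adult marrow, Elf4 limits stem cell quiescence, and Ets1 is best known from lymphoid cells.

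Promoters of 9 of the 10 members were found in the RefSeq annotation of GRCm38.p6, as 14 windows from 250 bases before to 50 bases after a transcription start. Ets1 was not among them. Each was searched on both strands for CCGGAAGT, a full ETS consensus site, and for its shorter part GGAAGT, so that every CCGGAAGT also counts as a GGAAGT. CCGGAAGT was present in 1 of the 14 windows, against 3.89% of the 32851 windows of all genes, and that window belongs to Elk4. GGAAGT was present in 7 of the 14 windows, against 23.8% of all windows. These windows belong to 5 of the 9 members (Elk4, Elf2, Etv3, Elf1 and Gabpa). Several of the 7 are windows of Elk4, some of which overlap, so that they are not independent. Members differ in their number of windows, so the share of windows is no background for the share of members. A match in these letters is a description and does not show that a factor binds there. Windows are given for Gabpa, Elk4 and Ets2, all on the plus strand with the matches in capitals. Gabpa alone had no overlap between the genotypes, Elk4 varied most between samples relative to its level, and Ets2 held no match.
Gabpa promoter, chr16:84834874-84835173: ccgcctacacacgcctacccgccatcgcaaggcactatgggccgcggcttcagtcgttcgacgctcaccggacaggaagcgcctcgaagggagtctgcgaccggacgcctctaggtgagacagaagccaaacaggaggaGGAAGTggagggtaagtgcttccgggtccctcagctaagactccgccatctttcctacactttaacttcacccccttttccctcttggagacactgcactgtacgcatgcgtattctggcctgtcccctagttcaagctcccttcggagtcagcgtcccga
Elk4 promoter, chr1:132007370-132007669: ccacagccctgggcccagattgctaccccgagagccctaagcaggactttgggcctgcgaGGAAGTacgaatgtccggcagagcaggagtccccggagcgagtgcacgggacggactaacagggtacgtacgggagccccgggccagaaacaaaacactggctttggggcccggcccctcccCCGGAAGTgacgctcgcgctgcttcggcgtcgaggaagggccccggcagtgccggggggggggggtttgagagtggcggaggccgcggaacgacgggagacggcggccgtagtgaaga
Ets2 promoter, chr16:95702157-95702456: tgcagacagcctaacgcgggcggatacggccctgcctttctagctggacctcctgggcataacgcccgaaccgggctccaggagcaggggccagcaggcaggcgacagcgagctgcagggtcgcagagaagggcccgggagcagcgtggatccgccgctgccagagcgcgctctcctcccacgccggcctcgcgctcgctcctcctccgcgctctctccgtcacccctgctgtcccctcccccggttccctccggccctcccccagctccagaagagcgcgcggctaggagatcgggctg
The match in Gabpa starts 111 bases before the transcription start. In Elk4 the matches start 190 and 66 bases before it, and the latter lies within CCGGAAGT.

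Total counts per sample ran from 32234499 to 43751290, and 13340 genes had enough counts to be tested. Counts are given as CPM, the counts relative to library size with library sizes scaled by the trimmed mean of M values (TMM). Ddx41 was at 92.8 to 106.6 CPM in Ddx41+/+ and 64.4 to 69.5 CPM in Ddx41+/- samples, or 68.8% of the Ddx41+/+ mean (log2 fold change -0.54, edgeR adjusted p = 0.0052). All 8 genes of the LSK marker list were tested and none was called, but 4 (Cd34, Flt3, Slamf1 and Procr) were lower in Ddx41+/- samples at an unadjusted p under 0.05. Of all genes tested, 10.6% passed that p by edgeR in either direction, also the background for the neutrophil markers below. Summed over the list, levels were 1583.9 to 1762 CPM in the Ddx41+/+ samples and 1479 to 1625 CPM in the others. All 9 mature neutrophil markers present in the table were higher in Ddx41+/- samples at an unadjusted p under 0.05, and Mmp9 also after adjustment. Their sum was 732 to 1245 CPM in Ddx41+/+ samples, below the 1328 to 2273 CPM of the Ddx41+/- samples in every case.

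All 10 ETS members were transcribed and passed the expression filter, with 616 to 21026 counts in each sample. None of the 10 changed between the genotypes after adjustment over all genes (edgeR quasi-likelihood test, Benjamini-Hochberg adjusted p from 0.329 to 0.934), where 0.217% of all genes tested did. The count was also 0 with DESeq2 and limma-voom. At an unadjusted p under 0.05, 2 members were found, Ets1 and Gabpa, both with higher estimates in Ddx41+/- cells, against 10.6% of all genes. The CPM ranges of the genotypes did not overlap for 1 member, Gabpa, against 10.1% of all genes, so that the share of the members is near the background. Without Ddx41+/+ replicate 4, Ddx41+/- replicate 7 or Ddx41+/- replicate 8 the former count was 1. The latter was 4 without Ddx41+/+ replicate 2 and 1 or 2 without any other sample. The 10.1% holds for all 7 samples and is no background for these counts. Ranges of fewer samples separate more easily, and the share over all genes was not counted with a sample left out. Estimates were higher in Ddx41+/- samples for 4 members and lower for 6, and the median log2 fold change was -0.03, beside -0.0048 for all genes tested. For 8 members the 95% interval lay within a change of 0.8- to 1.25-fold. Those of Ets1 and Elk4 reached further. In bulk RNA, fewer cells of a type and less RNA per cell cannot be told apart.

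**Figure D1:**
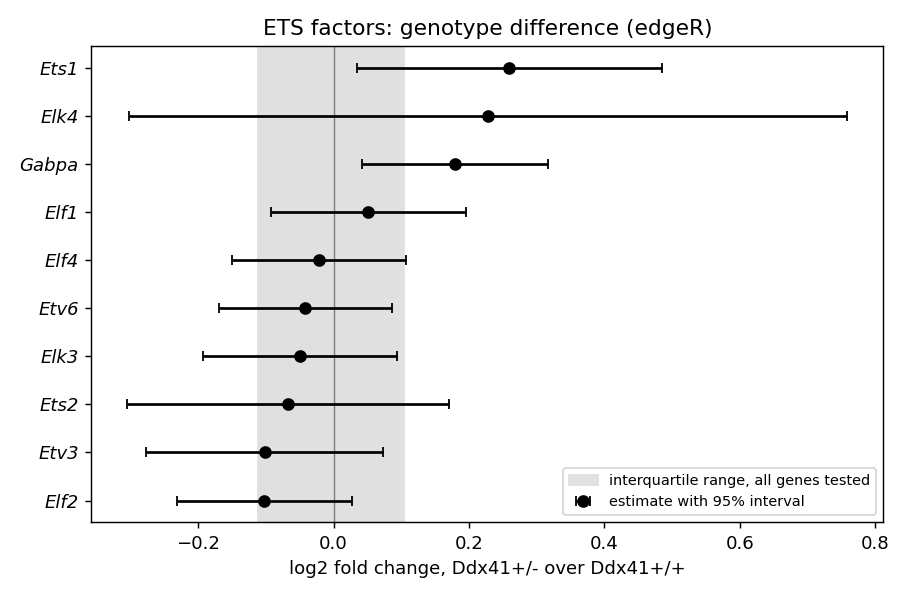
Estimated log2 fold change (Ddx41+/- over Ddx41+/+) of the 10 ETS members with 95% intervals from edgeR, and in grey the interquartile range of all genes tested, from -0.11 to 0.10. The intervals of Ets1 and Gabpa lie above 0, that of Elk4 is the widest, and the other 7 intervals span 0.

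Levels differed widely between the members. To compare levels between genes, CPM were divided by the length of the merged exons in kilobases. Etv6, the repressor, had the highest level at 80.4 ± 3.20 CPM per kilobase (SD, n = 4 Ddx41+/+ samples), or 36.7% of the sum over the 10 members when averaged over the 7 samples. Elf1 followed at 40.4, Elf4 at 27.3, Elk3 at 21.3, Gabpa at 16.5 and Elf2 at 15.1 CPM per kilobase. The lowest 4 were Elk4 at 4.29, Etv3 at 4.20, Ets2 at 3.77 and Ets1 at 3.14 CPM per kilobase. Ranges over the 7 samples overlapped between Elk3 and Gabpa and between each neighbouring pair of the lowest 4, while the remaining neighbours did not overlap. Compared within each sample, Elk3 was above Gabpa and Etv3 above Ets2 in 7 of 7 samples. Elk4 was above Etv3 in 5 and Ets2 above Ets1 in 3 of the 7, so that these 2 orders are not resolved. The 3 samples with Ets2 above Ets1 were all Ddx41+/+. On the same scale the lineage regulators Spi1, Erg and Fli1 had Ddx41+/+ means of 65.5, 38.5 and 27.5 CPM per kilobase, within the range of the higher members. The order depends on the length used for Elf2, which has many transcripts: with the longest transcript it ranked 4 instead of 6. Ets1 and Ets2 changed places with that length only in the mean over the 7 samples. Their Ddx41+/+ means kept the order, at 5.60 for Ets2 and 5.24 CPM per kilobase for Ets1. With that length Spi1, at a Ddx41+/+ mean of 86.8 CPM per kilobase, lay above Etv6 at 84.3, and Elf1 was at 64.3.

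**Figure D2:**
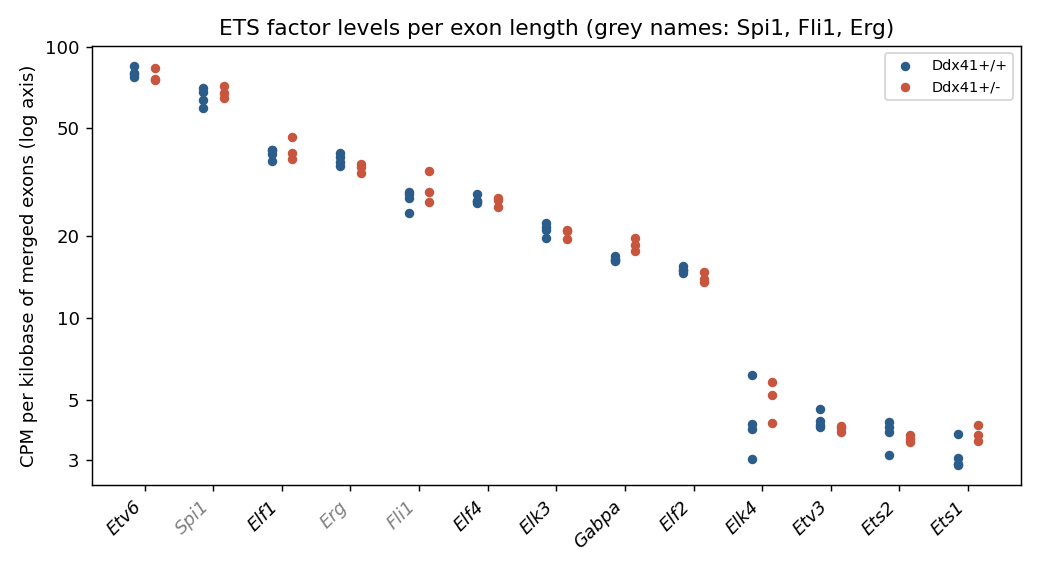
CPM per kilobase of merged exons (log axis) for each ETS factor, with 1 point per sample and the genotypes side by side, and with Spi1, Fli1 and Erg named in grey. Etv6 lies highest at 80.4 and Ets1 lowest at 3.14 CPM per kilobase in Ddx41+/+ samples. Relative to its level, as on this log axis, the widest range of a member is that of Elk4, from 3.04 to 6.17.

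Ets1 and Ets2 are close relatives, both activated by phosphorylation through the Ras and MAP kinase pathway. Ets1 lies at chr9:32636221-32757820 on the plus strand (GRCm38, as for the genes that follow) and shares no exonic bases with another gene. Its level was 24.3, 31.7, 25.9 and 24.5 CPM in Ddx41+/+ replicates 1 to 4 and 30.0, 31.4 and 34.2 CPM in Ddx41+/- replicates 6 to 8. All 3 Ddx41+/- samples were above 3 of the Ddx41+/+ samples, but replicate 2 of Ddx41+/+ fell between the second and the highest Ddx41+/- value. The means were 26.6 ± 3.48 CPM (SD, n = 4) and 31.9 ± 2.16 CPM (SD, n = 3). This is a log2 fold change of 0.26 (SE 0.106, 95% interval 0.03 to 0.49) and gave an unadjusted p of 0.0266 and an adjusted p of 0.398 by edgeR. Without Ddx41+/+ replicate 2 the log2 fold change was 0.36 (edgeR unadjusted p = 0.00333, adjusted p = 0.331), and without Ddx41+/- replicate 8 it was 0.20 (edgeR unadjusted p = 0.118). The edgeR unadjusted p was also above 0.05 without Ddx41+/+ replicate 1 (0.0670) or 4 (0.0743). Lymphoid markers were looked at beside it. B-lineage markers summed to 42.7 to 63.6 CPM in Ddx41+/+ and 57.2 to 78.8 CPM in Ddx41+/- samples. Of these markers, 3 of 8 were higher at an unadjusted p under 0.05 by edgeR, against 10.6% of all genes in either direction. T and NK markers summed to 239 to 290 and 266 to 297 CPM with 0 of 6 at that p, and most of the sum was Nkg7. Without Nkg7 they summed to 17.2 to 18.01 CPM in Ddx41+/+ and 15.2 to 16.8 CPM in Ddx41+/- samples, without overlap. The largest part of that sum was Lck, which overlapped, at 11.2 to 12.7 and 9.55 to 13.1 CPM (edgeR adjusted p = 0.891). Cd8a (0.498 and 0.213 CPM on average) and Cd5 (1.30 and 0.751 CPM) were lower in each Ddx41+/- sample than in each Ddx41+/+ sample (edgeR adjusted p = 0.549 and 0.545). Of all genes tested, 10.1% had no overlap in either direction. Cd4 (log2 fold change 0.03) and Klrb1c (-0.22) overlapped. Cd3d, Cd3e and Cd3g together were at 0.024 to 0.347 CPM in Ddx41+/+ and 0.090 to 0.475 CPM in Ddx41+/- samples. The part of these lymphoid markers in the Ets1 values was not tested.

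Ets2 lies at chr16:95702075-95721051 on the plus strand and shares no exonic bases with another gene. Its CPM was 22.0, 18.1, 24.0 and 23.0 in Ddx41+/+ and 20.2, 20.6 and 21.5 in Ddx41+/- samples. All Ddx41+/- values fell inside the Ddx41+/+ range, whose lowest sample was replicate 2, the highest Ddx41+/+ sample for Ets1. For Ets2 the log2 fold change was -0.07 (SE 0.112, edgeR adjusted p = 0.881), and the 95% interval of the fold was 0.81 to 1.13.

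The 3 genes whose log2 CPM over the 7 samples was most like that of Ets1, among 9105 genes, were Impad1 (Pearson r = 0.990), Spop (r = 0.985), the substrate adaptor of a cullin ubiquitin ligase, and Skil (r = 0.958), a repressor of SMAD signaling. For Ets2 they were Alox5 (r = 0.984), which makes leukotrienes in myeloid cells, Rmdn3 (r = 0.951) and Parvb (r = 0.946). These are the extremes of a long search over 7 samples that include both genotypes, and serve as a description.

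Etv6, the most abundant member, is a repressor that is fused to RUNX1 in childhood leukemia. It lies at chr6:134035700-134270158 on the plus strand. Its CPM was 508.4, 478.7, 463.6 and 474.4 in Ddx41+/+ and 450.3, 499.2 and 453.4 in Ddx41+/- samples. Of the Ddx41+/- samples, 2 lay below every Ddx41+/+ sample and replicate 7 lay near the top. Its log2 fold change was -0.04 (SE 0.0603, edgeR adjusted p = 0.859), and the 95% interval of the fold was 0.889 to 1.06.

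Elf1, Elf2 and Elf4 form the ELF subfamily, found across blood cells. Elf1 (chr14:79481194-79582494, plus strand) stood at 271.4, 280.5, 280.6 and 256.1 CPM in Ddx41+/+ and at 260.0, 311.8 and 274.4 CPM in Ddx41+/- samples. Replicate 7 of Ddx41+/- was above all others and the rest intermingled. Without that replicate the log2 fold change turned from 0.05 (edgeR adjusted p = 0.839) to -0.03.

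Elf2 (chr3:51252720-51340663, minus strand) was at 148.8, 143.9, 143.7 and 140.5 CPM in Ddx41+/+ and at 140.8, 129.6 and 132.7 CPM in Ddx41+/- samples. The groups overlapped only in that Ddx41+/- replicate 6 lay just above Ddx41+/+ replicate 4. The log2 fold change was -0.10 (SE 0.0609, edgeR unadjusted p = 0.112, adjusted p = 0.583).

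Elf4 (chrX:48411046-48463132, minus strand) was at 176.9, 165.4, 163.6 and 165.8 CPM in Ddx41+/+ and at 167.3, 158.4 and 170.7 CPM in Ddx41+/- samples. Replicate 1 of Ddx41+/+ was the highest and the other 6 samples overlapped. The log2 fold change was -0.02 (SE 0.0605, edgeR adjusted p = 0.934), the closest to 0 of the members.

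Elk3 and Elk4 are ternary complex factors, which bind Srf at promoters of immediate-early genes. Elk3 (chr10:93247414-93311135, minus strand) was at 89.9 to 102.2 CPM in Ddx41+/+ samples and at 89.3 to 96.0 CPM in Ddx41+/- samples, with overlap and a log2 fold change of -0.05 (edgeR adjusted p = 0.850). Elk4 (chr1:132007607-132032612, plus strand) was at 39.6, 26.1, 19.5 and 24.9 CPM in Ddx41+/+ and at 26.4, 33.3 and 37.1 CPM in Ddx41+/- samples. Replicate 1 of Ddx41+/+ was the highest of all 7 and replicate 3 the lowest, a span of 2.03-fold within 1 genotype. The coefficient of variation of Elk4 in Ddx41+/+ samples was 31.1%, above that of 99.7% of the 7709 genes with at least 20 CPM, whereas the median of the 10 members was 4.81%. At its lowest count, 616, counting error alone gives 4.03%. The log2 fold change was 0.23 (SE 0.23, 95% interval -0.30 to 0.76, edgeR adjusted p = 0.788). Without Ddx41+/+ replicate 1, the highest, it was 0.46 (edgeR unadjusted p = 0.00447, adjusted p = 0.226). Without Ddx41+/+ replicate 3, the lowest, it was 0.096 (edgeR unadjusted p = 0.619), and without Ddx41+/- replicate 8 it was 0.11 (edgeR unadjusted p = 0.660).

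The genes most like Elk4 over the 7 samples, named after its spread was seen, were Akap13 (r = 0.989), Setd2 (r = 0.986) and Spen (r = 0.979).

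**Figure D3:**
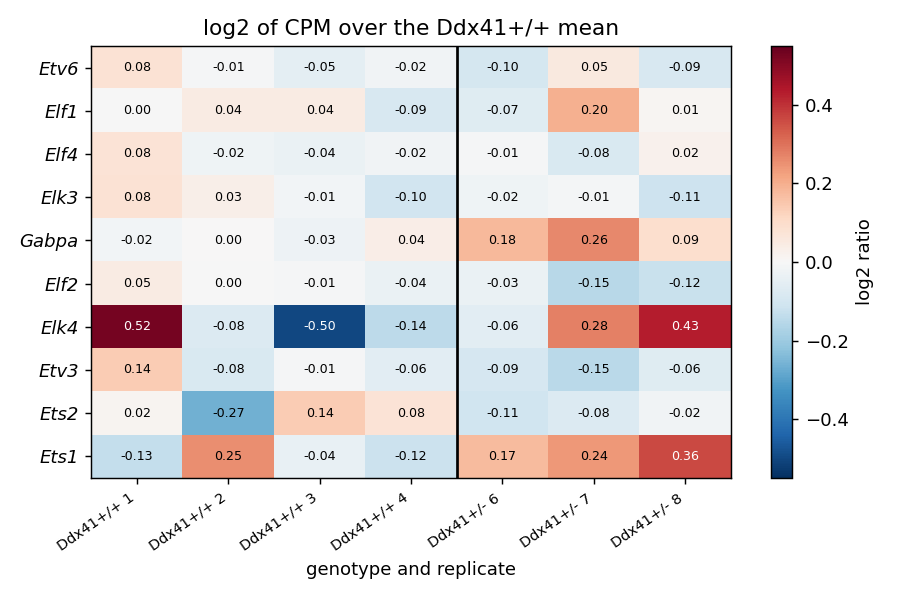
log2 of the CPM of each ETS member (rows) in each sample (columns) over its Ddx41+/+ mean, with the value in each cell and a line between the genotypes. Elk4 spans 0.52 to -0.50 within the Ddx41+/+ samples, and Gabpa is above 0 in all 3 Ddx41+/- samples at 0.18, 0.26 and 0.09.

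Gabpa encodes the DNA-binding subunit of GABP, also known as nuclear respiratory factor 2, which drives nuclear genes of mitochondria and several myeloid genes. It lies at chr16:84834925-84863779 on the plus strand. Its CPM was 92.8, 94.1, 92.0 and 96.3 in Ddx41+/+ and 106.2, 112.6 and 100.1 in Ddx41+/- samples. Each Ddx41+/- sample lay above each Ddx41+/+ sample, and the means were 93.8 ± 1.88 CPM (SD, n = 4) and 106.3 ± 6.25 CPM (SD, n = 3), or 113.3% of the Ddx41+/+ mean. On the log2 scale the fold change was 0.18 (SE 0.0649, 95% interval 0.04 to 0.32), for an unadjusted p of 0.0137 and an adjusted p of 0.329 by edgeR. Of all genes tested, 4.14% had a smaller edgeR p than Gabpa. Without Ddx41+/- replicate 7 the log2 fold change was 0.14 (edgeR unadjusted p = 0.0692).

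The neutrophil markers had higher sums in the 3 Ddx41+/- samples, which were also higher in Gabpa (1328 to 2273 against 732 to 1245 CPM). Within the Ddx41+/+ group, replicate 3 had the highest sum (1245 CPM) and the lowest Gabpa (92.0 CPM). Within the Ddx41+/- group, replicate 6 had the highest sum and replicate 7 the highest Gabpa, while replicate 8 was lowest in both. Of the neutrophil markers, 9 of 9 were higher at an unadjusted p under 0.05 by edgeR, against 10.6% of all genes in either direction. Their part in the Gabpa and Ets1 values was not tested. Gabpa also shares 397 exonic bases with the antisense gene Atp5j, a subunit of ATP synthase. Whether counting used strand is not given in the sources used here. Atp5j was at 136.3, 152.4, 170.8 and 140.4 CPM in Ddx41+/+ and at 154.9, 152.9 and 129.9 CPM in Ddx41+/- samples, with no order by genotype (edgeR adjusted p = 0.909). Shared exonic bases were fewer for Elf2 (371, with 4930577N17Rik), Elf1 (327, with Wbp4), Elk3 (316, with Cdk17), Etv6 (135, with Gm17089) and Elk4 (104 with Gm29103 and 84 with Mfsd4a).

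Etv3 is a repressor that recruits the helicase Ddx20 and is known from macrophage differentiation. It lies at chr3:87525407-87540156 on the plus strand. The CPM of Etv3 lay between 40.7 and 47.6 in the Ddx41+/+ group and between 38.9 and 41.3 in the Ddx41+/- group, with overlap at 40.7 to 41.3 CPM. Etv3 had a log2 fold change of -0.10 (SE 0.0829, edgeR adjusted p = 0.710).

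**Figure D4:**
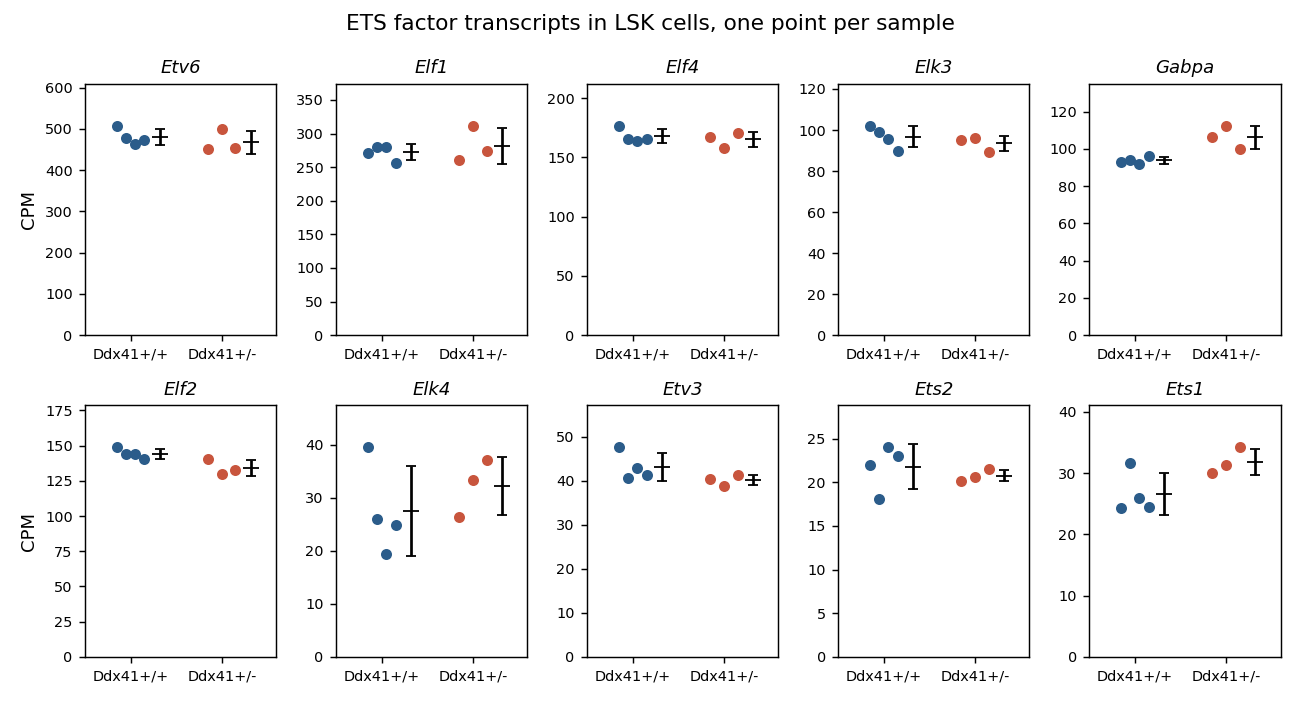
CPM of each ETS member per sample, with the mean ± SD of each genotype (n = 4 Ddx41+/+, n = 3 Ddx41+/-) beside the points and every axis starting at 0. The points of the genotypes are apart only for Gabpa, at 92.0 to 96.3 against 100.1 to 112.6 CPM.

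The remaining 16 ETS genes were examined next, of which 10 had enough counts for a test and 0 changed after adjustment by edgeR. At an unadjusted p under 0.05 was 1 (Etv1), a share near the 10.6% of all genes tested. Spi1, the master regulator of myeloid and lymphoid fate, had a log2 fold change of 0.05, Fli1 of 0.14 and Erg, a stem cell factor, of -0.11, and edgeR gave Erg an adjusted p of 0.589. Etv1 was at 0.181 to 1.01 CPM in Ddx41+/+ and at 0.051 to 0.267 CPM in Ddx41+/- samples (edgeR adjusted p = 0.444), and Etv4 at 0.828 to 1.80 and 0.534 to 0.914 CPM (edgeR adjusted p = 0.580). The median log2 fold change of this list was -0.14.

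Of 24 partners and upstream kinases of ETS factors, 23 were tested and 0 changed after adjustment by edgeR. At an unadjusted p under 0.05 were 2 (Ncor1 and Pax5), a share near the 10.6% of all genes tested. The median log2 fold change of the list was 0.02. Ncor1, a corepressor recruited by Etv6, had a log2 fold change of 0.27 (edgeR adjusted p = 0.403). Pax5, which pairs with Ets1 in B cells, was at 0.221 to 1.33 CPM in Ddx41+/+ and at 1.19 to 2.17 CPM in Ddx41+/- samples (edgeR adjusted p = 0.434), and it also belongs to the B-lineage markers given above. Map2k2, a kinase upstream of Ets1, Ets2 and Elk4, had a log2 fold change of -0.12 (edgeR adjusted p = 0.584). Among the obligate partners of Gabpa, Gabpb1 had a log2 fold change of -0.08 and Gabpb2 of 0.07 (edgeR adjusted p = 0.723 and 0.773). Values for Srf (0.08), Runx1 (0.06), a partner of Ets1 and Elf4, and Ddx20 (-0.13) were also small on the log2 scale, and edgeR gave Ddx20 an adjusted p of 0.648.

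Of 11 genes known as targets of Srf with its Elk partners, 9 were tested. None changed after adjustment by edgeR, and 1 (Fos) passed an unadjusted p under 0.05, a share near the 10.6% of all genes tested. All 9 estimates were higher in Ddx41+/- samples, from 0.01 (Mcl1) to 1.80 (Fosb). Their median log2 fold change was 0.20, beside -0.0048 for all genes tested. Fos was at 59.9 to 190.4 CPM in Ddx41+/+ and at 158.2 to 341.5 CPM in Ddx41+/- samples (log2 fold change 1.34, edgeR adjusted p = 0.460). For Fosb, a relative of Fos, the ranges were 8.54 to 59.2 and 32.5 to 110.1 CPM (1.80, edgeR adjusted p = 0.558), and for Ier2 58.3 to 86.9 and 79.0 to 89.0 CPM (0.20, edgeR adjusted p = 0.547). The genotypes overlapped for all 3. Within Ddx41+/+, replicate 4 stood above the others for Fos (190.4 CPM, the next at 97.6) and for Fosb (59.2 CPM, the next at 14.1).

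All 16 genes listed as GABP targets, mostly cytochrome oxidase subunits and mitochondrial transcription factors, were tested. After adjustment 0 changed by edgeR. At an unadjusted p under 0.05 were 2 (Elane and Cox6a1), in opposite directions, a share near the 10.6% of all genes tested. Elane, the neutrophil elastase gene, was at 2076 to 2748 CPM in Ddx41+/+ and 2855 to 3108 CPM in Ddx41+/- samples (log2 fold change 0.26, edgeR adjusted p = 0.264). Cox6a1 was at 153.3 to 169.8 and 137.9 to 156.6 CPM (-0.14, edgeR adjusted p = 0.449), and Tomm20, a mitochondrial import receptor, at 142.1 to 144.7 and 119.5 to 141.8 CPM (-0.12, edgeR adjusted p = 0.555). Estimates were higher for 5 of the 16 and lower for 11, with a median log2 fold change of -0.03.

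**Figure D5:**
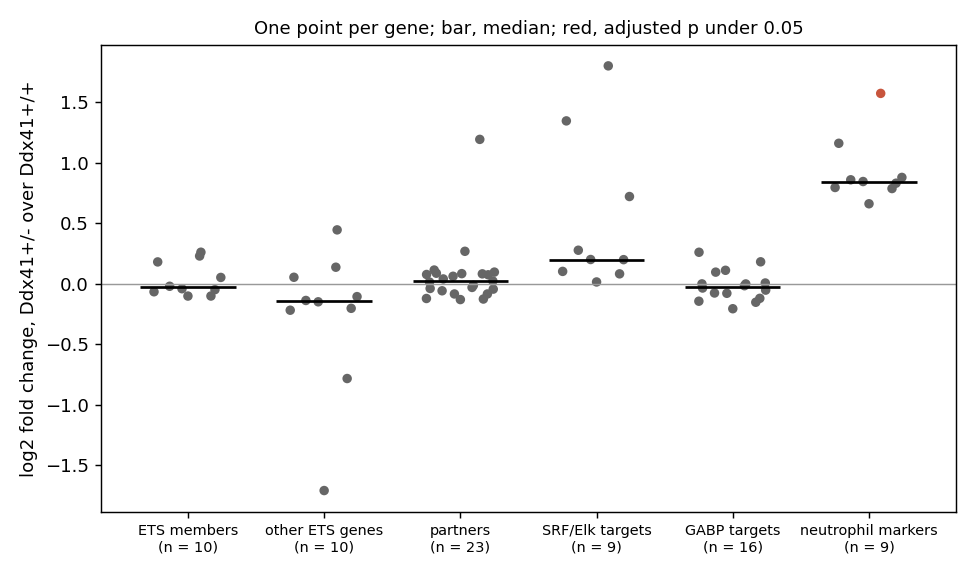
log2 fold change (Ddx41+/- over Ddx41+/+) of each tested gene of the ETS members, the other ETS genes, their partners, the Srf and GABP target lists and the mature neutrophil markers, with the median of each as a bar. The medians of the ETS members and GABP targets lie at -0.03, that of the Srf targets at 0.20 and that of the neutrophil markers at 0.84, where Mmp9 in red has an adjusted p under 0.05.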

How the data were processed

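RNA-seq was performed on LSK cells of 7 recipient mice, 4 Ddx41+/+ and 3 Ddx41+/-, grouped by the deposited genotype. The counts deposited by the authors are raw read counts for each gene symbol. The submitters' processing notes name FastQC 0.11.7, HISAT2 2.0.5, featureCounts 1.5.2 and mm10. The labels name a stranded library kit, but the strand setting used in counting is not given in the sources used here, so overlapping antisense genes are uncertain. Total counts per sample were 32234499 to 43751290.

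Counts were tested with edgeR 4.0.16 (R 4.3.3, robust quasi-likelihood fit, TMM scaling, filterByExpr by genotype) on 13340 genes, with Benjamini-Hochberg adjustment over all of them at 0.05. The biological coefficient of variation was 12.9%. CPM used TMM-scaled library sizes, and log2 CPM a prior count of 2. Intervals are at the 95% level. Alternatives were other scalings, no filter, DESeq2 1.42.0, limma-voom (limma 3.58.1), a non-robust fit and leaving out each sample in turn. The edgeR fit was tested on simulated counts with known changes, and the other steps were not. Positions and exon lengths came from GENCODE M21 (GRCm38), and promoters from RefSeq (GRCm38.p6).

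Named were all members, Ddx41, the other list genes with an adjusted p under 0.05 or otherwise the 3 of each list with the smallest unadjusted p, and Spi1, Fli1, Erg, Gabpb1, Gabpb2, Srf, Runx1 and Ddx20 as relatives or partners. For Ets1 and Ets2, the 3 genes with the highest Pearson r were named among those with at least 10 CPM, and for Elk4 after its values were seen. The members and gene lists were chosen with earlier results of these data known. Mrtfa, Mrtfb and Ccn1 were read under their older symbols Mkl1, Mkl2 and Cyr61.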

Additional observations from a re-analysis of the deposited data

Results flagged for a closer look

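The level of Elf4 in Ddx41+/+ replicate 1, at 176.9 CPM, stood apart from the other 3 samples of its genotype, the nearest of which was at 165.8 CPM. The gap took a share of the group's range (0.837) just above Dixon's critical value of 0.829. Of 27 values examined in this way (the members, related genes and summed marker lists) this was the 1 that passed, where 1.35 are expected by chance. Without that sample the log2 fold change of Elf4 was 0.0045 in place of -0.02.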

How the results depend on the processing

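The number of ETS members with an adjusted p under 0.05 was 0 in all 15 alternative fits. Ets1 and Gabpa kept a higher estimate in each of them, at 0.20 to 0.36 and 0.14 to 0.22 on the log2 scale, with adjusted p-values of 0.310 to 0.700 and 0.222 to 0.726, and reached an unadjusted p under 0.05 in 11 and 14 of the 15. Elk4 ranged from 0.096 to 0.46. Estimates close to 0 changed sign: Ets2 to 0.013 with limma-voom and sample quality weights, Elf4 to 0.0045 without Ddx41+/+ replicate 1 and to 0.0078 without Ddx41+/- replicate 7 (from -0.045 to 0.0078 over the samples left out), and Elf1 to -0.028 without Ddx41+/- replicate 7 (-0.028 to 0.106). Members without overlap between genotypes numbered 2 with library totals (Elf2 and Gabpa) and 2 with upper-quartile scaling (Gabpa and Etv3), and 1 to 4 with a sample left out, 4 (Ets1, Ets2, Gabpa and Etv3) without Ddx41+/+ replicate 2. Gabpa was among them each time. The share of all genes without overlap was not counted in these settings. With a sample left out, ranges separate more easily, so these counts have no background. Members at an unadjusted p under 0.05 numbered 1 with sample quality weights and 1 to 2 with a sample left out. Over all genes, 29 passed the adjusted threshold, against 15 with library totals, 91 without the filter, 156 with DESeq2, 10 with limma-voom, 14 with the non-robust fit and 7 to 41 with a sample left out. The cause of these differences was not tested. No paired analysis was possible because the genotypes share no replicate number. With 4 and 3 samples, the 95% interval of the fold was widest for Elk4 (0.81 to 1.69).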

Other observations

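Exoc5 (Pearson r = 0.963), a subunit of the exocyst, Ckap4 (r = 0.954) and Cybb (r = 0.952), the phagocyte oxidase subunit, were the genes whose log2 CPM over the 7 samples was most like that of Gabpa, among 9105 genes. They were named after the Gabpa values were seen. Cybb had a mean of 65.9 CPM in Ddx41+/+ and 98.0 CPM in Ddx41+/- samples, and it was higher after adjustment (log2 fold change 0.57, edgeR adjusted p = 0.0121), whereas Exoc5 and Ckap4 had adjusted p-values of 0.505 and 0.314 by edgeR. The 7 samples include both genotypes, and no test was made of these likenesses.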
